A study of Mus musculus with 43 samples.

Results

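The 37 genes described here encode the contractile, calcium-handling and energy proteins of skeletal muscle, and in mouse back skin they report on the panniculus carnosus, the thin muscle sheet under the dermis. They were chosen by name as a skeletal muscle set, and all 37 were among the 23256 genes of the normalised count table. All 37 also passed the filter on low values, a normalised count of at least 10 in at least 4 libraries, which 19170 genes passed. In bulk skin RNA, fewer muscle cells in a biopsy and less RNA per muscle cell cannot be told apart, so each level below is a share of muscle in the sample as well as a measure of the gene.

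The study sequenced poly-A RNA from back skin of female mice aged 10 to 13 weeks in 43 libraries. The 3 strains were NZM, a lupus-prone New Zealand mixed line, iNZM and WT. In this field iNZM stands for NZM animals that lack the receptor for type I interferon, although the labels define neither iNZM nor the strain behind WT. Each strain received no UVB (5 NZM, 4 iNZM and 4 WT libraries), a single acute dose of 300 mJ/cm2 (5 libraries of each strain) or a chronic course of 100 mJ/cm2 daily for 5 days (5 libraries of each strain), and skin was taken 24 h after the last dose. Labels number the libraries as samples without stating that each came from a separate mouse, so p-values measure the spread between these samples, which may be in part technical.

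Skeletal muscle contracts when myosin thick filaments pull on actin thin filaments between Z discs. Calcium, released from the sarcoplasmic reticulum through the ryanodine receptor and bound by troponin C, starts the pull, and creatine kinase and glycogen breakdown feed it with ATP. Fast and slow fibres use different paralogs of myosin, troponin and calcium pump genes, and the skin muscle of rodents is known as a mainly fast muscle.

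Library depth was 18.5 to 37.8 M recovered reads, with a median of 24.4 M, and no replicate pair was close enough to be a library deposited again. 9 libraries stood apart by their hair genes: the hair shaft score, a mean over 18 hair shaft genes of log2(value + 1) centred per gene, was 5.68 to 9.20 in them and -3.60 to 2.79 in the other 34. They were NZM acute 5, iNZM acute 6 and 49, NZM chronic 17, 55 and 56, and iNZM chronic 22, 24 and 25, and the main counts and medians they touch are given with and without them. That limit of 5 on the score was chosen after the values were seen.

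The label of the set was checked against other muscle types. Smooth muscle genes, which vessels and hair muscles of skin express, were present at far lower counts. The 10 smooth muscle markers summed to 4750 to 20600 normalised counts per library, of which Acta2, smooth muscle actin, had 384 to 4040, against 24000 to 764000 for the skeletal actin Acta1 alone. The 8 of 9 listed cardiac markers in the table summed to 122 to 462, and Myh6, the atrial myosin heavy chain, and Mybpc3, the cardiac myosin-binding protein, had medians of 0 over the 43 libraries. 

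The 37 genes together took 0.539% to 10.9% of all reads in a library. By group, the mean share was 7.85% ± 2.48 (SD, n = 4) in WT without UVB, 7.11% ± 1.92 (n = 5) in WT after acute UVB, 5.67% ± 1.97 (n = 5) in NZM without UVB and 5.53% ± 0.627 (n = 4) in iNZM without UVB. It was 4.27% ± 1.10 in NZM and 3.64% ± 2.40 in iNZM after acute UVB (n = 5 each). After chronic UVB it was lowest in every strain, with 2.63% ± 2.39 in iNZM, 2.24% ± 1.47 in NZM and 1.87% ± 0.232 in WT (n = 5 each). Neighbouring groups in this order overlapped in their libraries. The 5 chronic WT libraries lay between 1.57% and 2.14%, below the WT range without UVB of 5.64% to 10.9%. Chronic NZM and iNZM libraries spread much more, from 0.775% to 4.49% and from 0.539% to 5.31%. Among these 10, the 6 with a high hair shaft score had 0.539% to 1.62% and the 4 others 2.88% to 5.31%.

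**Figure D1:**
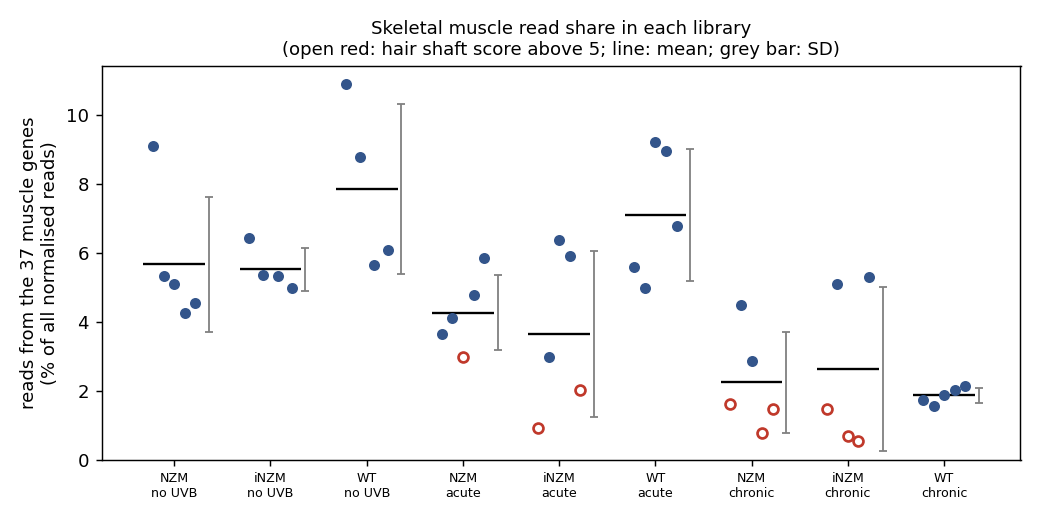
Share of all normalised reads (vertical axis, percent) that came from the 37 skeletal muscle genes in each of the 43 libraries, by strain and UVB schedule. Black lines are group means, grey bars are SDs and open red circles mark the 9 libraries with a hair shaft score above 5; the chronic WT libraries sit between 1.57% and 2.14% with no open circle among them.

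Acta1, skeletal muscle alpha-actin and the main protein of the thin filament, was the most abundant of the 37 genes per length, with a median of 165000 normalised counts per kilobase of exon. The gene (ENSMUSG00000031972.5) spans chromosome 8, 123891769 to 123894751, minus strand, of GRCm38 in GENCODE vM21. Without UVB, Acta1 stood at 558000, 346000, 295000, 253000 and 253000 normalised counts in NZM, at 384000, 273000, 303000 and 323000 in iNZM, and at 764000, 542000, 260000 and 306000 in WT. After acute UVB the values were 166000, 212000, 208000, 281000 and 155000 in NZM, 44600, 256000, 91500, 151000 and 404000 in iNZM, and 367000, 395000, 266000, 277000 and 266000 in WT. After chronic UVB they were 128000, 76300, 244000, 25400 and 63000 in NZM, 261000, 67100, 278000, 25100 and 24000 in iNZM, and 79900, 96200, 86200, 81300 and 98900 in WT. All 5 chronic NZM and all 5 chronic WT libraries lay below every library of their strain without UVB, whereas 1 of the 5 chronic iNZM libraries (278000) exceeded the lowest of its 4 controls.

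Most members followed Acta1 from library to library. Acta1 itself varied 31.8-fold between its lowest and highest library. Of the 32 other members counted in every library, 24 varied less than 5-fold when expressed per 100 Acta1 counts. Mylpf, the fast regulatory light chain, and Tnnt3, fast troponin T, varied 2.02-fold in this ratio, Tnni2, fast troponin I, 2.08-fold, and Ckm, muscle creatine kinase, 2.21-fold. At the other end were Casq2, the cardiac and slow form of the calcium store protein calsequestrin (22.1-fold), Tnnt1, slow troponin T (34.8-fold), Tnni1, slow troponin I (601-fold) and Myh4, the fastest myosin heavy chain (855-fold). Such ratios share the Acta1 count of each library and are given as a description.

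The stretches of DNA before Acta1 and before the neighbouring Myh1 and Myh4 genes are shown because Acta1 and Myh1 fell together after chronic UVB whereas Myh4 varied on its own. They are from RefSeq on GRCm38.p6, written 5′ to 3′ on the strand of the gene and ending before its first annotated exon; capitals mark CANNTG (the E-box of MyoD-type factors), TATAAA, the MEF2 motif and the CArG box of serum response factor, searched on both strands.
Acta1 (chr8:123894776-123895025, minus strand): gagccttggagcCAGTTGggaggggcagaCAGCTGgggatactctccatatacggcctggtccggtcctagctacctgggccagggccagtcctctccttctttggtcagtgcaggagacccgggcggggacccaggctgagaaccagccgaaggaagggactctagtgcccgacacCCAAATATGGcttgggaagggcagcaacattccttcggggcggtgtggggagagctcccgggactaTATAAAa
Myh1 (chr11:67199852-67200051, plus strand): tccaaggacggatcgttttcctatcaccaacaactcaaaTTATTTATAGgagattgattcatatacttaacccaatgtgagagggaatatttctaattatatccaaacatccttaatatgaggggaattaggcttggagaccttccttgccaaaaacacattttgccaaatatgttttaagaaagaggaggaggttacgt
Myh4 (chr11:67237562-67237811, plus strand): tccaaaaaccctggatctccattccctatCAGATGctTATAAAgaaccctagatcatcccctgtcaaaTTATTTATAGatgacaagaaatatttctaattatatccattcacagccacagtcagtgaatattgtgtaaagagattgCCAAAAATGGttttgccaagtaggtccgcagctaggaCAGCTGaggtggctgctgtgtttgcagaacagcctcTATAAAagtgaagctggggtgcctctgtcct
RefSeq windows of 250 bases before a start were at hand for 30 of the 37 genes, in 36 windows. CANNTG stood in 32 of the 36 and in 66.2% of all 32851 windows, TATAAA in 6 and in 12.4%, the MEF2 motif in 6 (of Myh1, Myh4, Ttn, Casq2, Pgam2 and Pvalb) and in 2.92%, and the CArG box in 2 (of Acta1 and Myh4) and in 1.47%. The MEF2 motif and TATAAA can share bases. A match in a window is a description of its letters only.

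After chronic UVB, most of the 37 genes were called lower in each strain when all libraries and all 9 groups were in the limma fit. Differences are on the log2(value + 1) scale and were called at a Benjamini-Hochberg adjusted p below 0.05 over all 19170 genes in limma. Against the same strain without UVB, 23 of the 37 were lower in NZM, where 9.78% of all genes were called lower, 23 in iNZM (15.7% of all genes) and 23 in WT (16.8% of all genes). The median log2 difference of the 37 was -1.61, -1.72 and -1.92, against 0.04, 0.02 and 0.03 over all genes. 18 genes were lower in all 3 strains, 28 in at least 1 and 9 in none, and shares of all genes are not given for these counts. Comparisons of different strains share no library. They do share the same estimate of spread per gene, so their calls are not independent. The iNZM calls depended on the fit. Of the 24 members called there, Tnni1 as the higher one included, only Tnni1 passed in limma with just the compared groups. edgeR on recovered reads lost 22 of the 24 calls and DESeq2 lost 19.

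**Figure D2:**
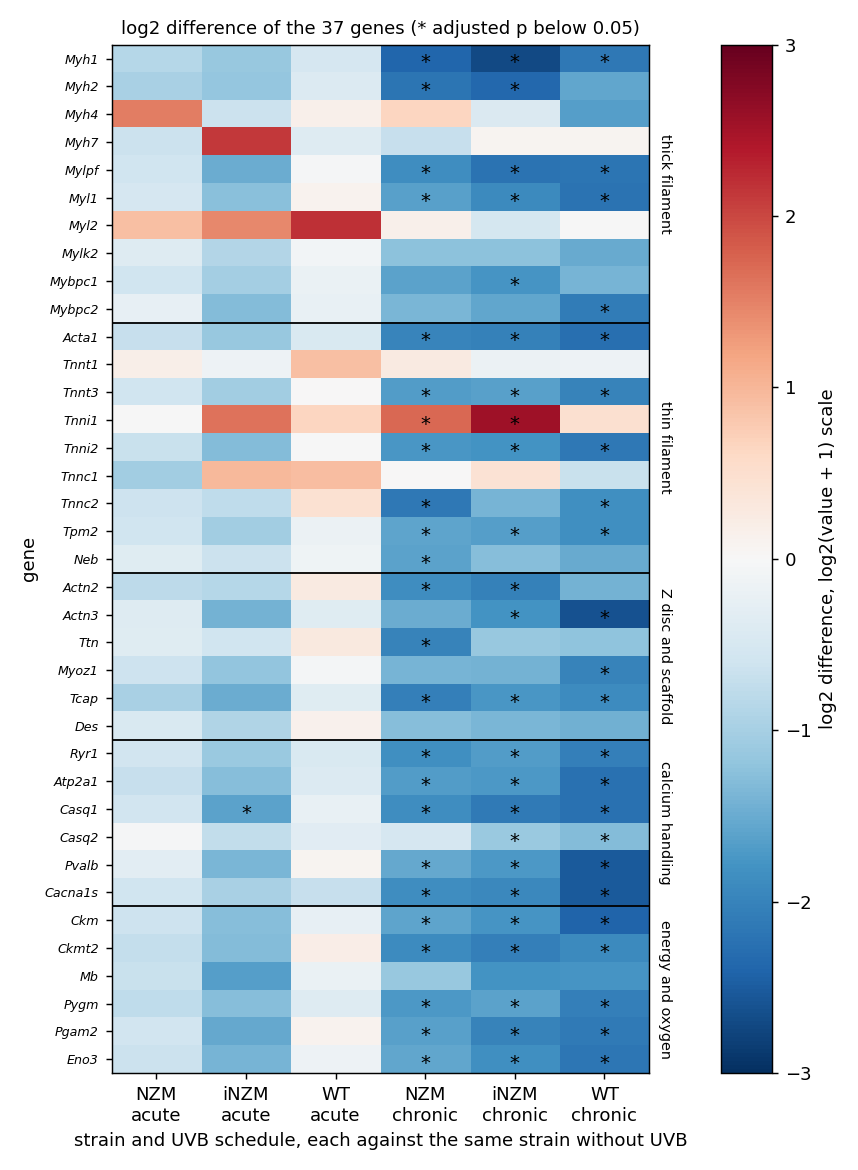
log2 difference (colour) of each of the 37 genes (rows, by role) in the 6 comparisons of UVB against no UVB in the same strain (columns), with an asterisk where limma's adjusted p was below 0.05. The 3 acute columns hold 1 asterisk and each chronic column holds 23 in blue; the red asterisks are those of Tnni1.

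In the thick filament, 4 of 10 members were lower in NZM, 5 in iNZM and 4 in WT. Myh1, the 2X fast myosin heavy chain and the myosin with the highest mean count, had 59700, 29200, 148000, 7820 and 23000 normalised counts in chronic NZM, 103000, 21600, 139000, 4060 and 3720 in chronic iNZM and 39400, 47600, 41700, 30600 and 49900 in chronic WT. Without UVB it had 334000, 180000, 193000, 131000 and 119000 in NZM, 215000, 119000, 130000 and 117000 in iNZM and 466000, 384000, 87400 and 69700 in WT. The groups did not overlap in WT, whereas 1 chronic library of NZM and 1 of iNZM reached the range of their controls. Its log2 difference was -2.38 (SE 0.74, adjusted p = 0.0228) in NZM, -2.70 (SE 0.78, adjusted p = 0.011) in iNZM and -2.14 (SE 0.78, adjusted p = 0.0308) in WT. The fast light chains Mylpf and Myl1 were lower in all 3 strains. Myh2, the 2A myosin, was lower in NZM (log2 -2.20) and iNZM (-2.34), with -1.57 in WT that did not pass. Of the myosin-binding proteins C, the slow Mybpc1 had log2 differences of -1.60, -1.76 and -1.39 in NZM, iNZM and WT, called in iNZM, and the fast Mybpc2 -1.38, -1.56 and -2.10, called in WT. Myh4, Myh7, Myl2 and Mylk2 were called in none of the 3.

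In the thin filament, 6 of 9 members were lower in NZM, 4 in iNZM and 5 in WT. Acta1 was lower by log2 -1.98 (SE 0.56, adjusted p = 0.0134) in NZM, -2.02 (SE 0.59, adjusted p = 0.0117) in iNZM and -2.27 (SE 0.59, adjusted p = 0.00301) in WT. Tnnt3, Tnni2 and the tropomyosin Tpm2 were lower with it in all 3 strains. Neb, nebulin, which runs along the thin filament, was called in NZM alone (log2 -1.61), with -1.28 in iNZM and -1.52 in WT. Whether strains differed in such genes was tested by the difference between responses, given below. Tnnc2, fast troponin C, was called lower in NZM and WT, but on a mean of only 8.96 normalised counts, against 51900 for Tnni2 and 114000 for Tnnt3. Its exons lie to 74% within exons of Ube2c on the opposite strand in GENCODE vM21 (Tnnc2, ENSMUSG00000017300.9, chromosome 2, 164777161 to 164779967), and the strand setting of the count is not given in the sources used here, so its level is uncertain.

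In the Z disc and scaffold, 3 of 6 members were lower in each strain. Tcap, telethonin, the cap of titin at the Z disc, was lower in all 3 (log2 -2.06, -1.74 and -1.88 in NZM, iNZM and WT). Actn3, the alpha-actinin of fast fibres, was lower in WT by -2.62 (adjusted p = 0.000647) and in iNZM by -1.79 (adjusted p = 0.0204), with -1.48 (adjusted p = 0.052) in NZM. Its paralog Actn2 was lower in NZM (-1.86) and iNZM (-2.02), the giant spring protein titin (Ttn) in NZM (-2.01), and Myoz1, a calcineurin-binding Z disc protein of fast fibres, in WT (-2.01). Des, desmin, the intermediate filament that links Z discs and is also made in smooth muscle, had the highest mean count of this role and was called in no strain. It had 29700, 17900, 48900, 6430 and 16100 normalised counts in chronic NZM against 79600, 45400, 42800, 40700 and 37200 without UVB, 67300, 15600, 60200, 5230 and 4690 in chronic iNZM against 60600, 41600, 41500 and 39200, and 26400, 25100, 20400, 23900 and 29300 in chronic WT against 119000, 89000, 42200 and 45200. WT groups did not overlap, and the adjusted p was 0.0594 there, 0.102 in NZM and 0.0774 in iNZM. Per 100 Acta1 counts, Des stood at 20.1 to 25.5 in chronic NZM against 13.1 to 16.1 without UVB, at 19.5 to 25.8 in chronic iNZM against 12.2 to 15.8, and at 23.7 to 33.0 in chronic WT against 14.8 to 16.4. After acute UVB it stood at 20.2 to 30.8 in WT, in the range of the chronic libraries, at 14.9 to 18.4 in NZM and at 15.3 to 19.1 in iNZM. So the ratio of desmin to skeletal actin was higher in all 15 chronic and all 5 acute WT libraries than in any of the 13 without UVB, a pattern seen in the values and not tested. Such ratios share the Acta1 count, and desmin was not alone in WT. Tpm2 per 100 Acta1 counts stood at 34.1 to 40.7 in chronic and 31.1 to 38.7 in acute WT, against 27.1 to 29.9 without UVB. In NZM its chronic range, 34.7 to 58.1, overlapped that without UVB, 28.7 to 35.6. In iNZM the ranges met, at 34.5 to 47.8 and 27.8 to 34.5. Per 100 Acta1 counts, acute WT also lay above its controls for Tnnt3 (49.6 to 63.4 against 35.7 to 46.2) and Mylpf (18.9 to 26.7 against 13.9 to 18.3). In chronic WT both overlapped the controls. How many members separate in this ratio was not counted. Smooth muscle markers were mixed, with 2 of 10 lower and 1 higher in NZM, 1 lower in iNZM and 3 lower in WT.

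In calcium handling, 5 of 6 members were lower in NZM and all 6 in iNZM and in WT. Atp2a1, SERCA1, the calcium pump of fast fibres, had 42700, 18800, 66000, 10400 and 18700 normalised counts in chronic NZM against 148000, 79100, 81700, 58300 and 62500 without UVB. In iNZM it had 88600, 18900, 75600, 8220 and 8290 against 94500, 79000, 81700 and 68400, and in WT 20200, 17300, 19400, 21900 and 22100 against 152000, 121000, 60500 and 72500. The 5 chronic WT libraries were close together and far under their controls, while chronic iNZM held 2 libraries at control level and 3 far below. The log2 difference was -1.68 (adjusted p = 0.0318), -1.72 (adjusted p = 0.0279) and -2.24 (adjusted p = 0.00346). Ryr1, the calcium release channel, Cacna1s, its voltage sensor, Casq1, fast calsequestrin, and Pvalb, the calcium buffer parvalbumin, were also lower in all 3 strains, Cacna1s by -1.87, -1.94 and -2.53. Casq2 was lower in iNZM (-1.12) and WT (-1.29) and had -0.50 in NZM.

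Of the 6 energy and oxygen genes, the same 5 were lower in every strain. These were Ckm, its mitochondrial partner Ckmt2, Pygm (muscle glycogen phosphorylase), and the glycolytic enzymes Pgam2 and Eno3. Ckm had 19500, 10200, 32700, 5050 and 11300 normalised counts in chronic NZM against 68400, 35500, 36200, 29900 and 33100 without UVB, and 46100, 10300, 34500, 4820 and 3830 in chronic iNZM against 44900, 40800, 44600 and 41400. In chronic WT it had 14100, 13100, 10800, 13500 and 14000 against 115000, 84300, 42300 and 54700. Thus 1 chronic library of NZM and 1 of iNZM reached their control range, and none of WT did. The log2 difference of Ckm was -1.57 (SE 0.53, adjusted p = 0.0338) in NZM, -1.78 (SE 0.56, adjusted p = 0.0179) in iNZM and -2.40 (SE 0.56, adjusted p = 0.00112) in WT. Mb, myoglobin, the oxygen store, was called in none, with -1.13, -1.79 and -1.76.

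The strains differed in how the fall was spread over libraries. In WT, 30 of the 37 genes had all 5 chronic libraries below all 4 libraries without UVB, which 15.0% of all genes did. In NZM that held for 3 genes (Acta1, Tnni2 and Pygm), with 6.91% of all genes, and in iNZM for 2 (Mylpf and Casq1), with 10.9% of all genes. Without the 9 libraries of high hair shaft score, 31 genes were lower in chronic WT (21.2% of all genes were), 0 in chronic NZM (2.67%) and 0 in chronic iNZM (10.7%), by limma with 2 chronic libraries left in each of NZM and iNZM. At an adjusted p over 0.05, Acta1 then had a log2 difference of -0.88 in NZM and -0.24 in iNZM, against -2.27 in WT, where no library had been left out. The median of the 37 was -0.61 in NZM, 0.10 in iNZM and -1.92 in WT. Single libraries also set the NZM and iNZM counts. Called members fell from 24 to 1 without chronic NZM 55, to 4 without chronic NZM 56 or control NZM 31, and to 9, 14 and 15 without chronic NZM 17, control 33 and control 32. In iNZM they fell from 24 to 5 without chronic 24, to 8 without chronic 25 and to 15 without control 39. In WT they stayed between 19 and 27. edgeR on the recovered reads called 10 lower in NZM, 1 in iNZM and 27 in WT. Shares of all genes called are not given for edgeR or for the fits without single libraries.

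**Figure D3:**
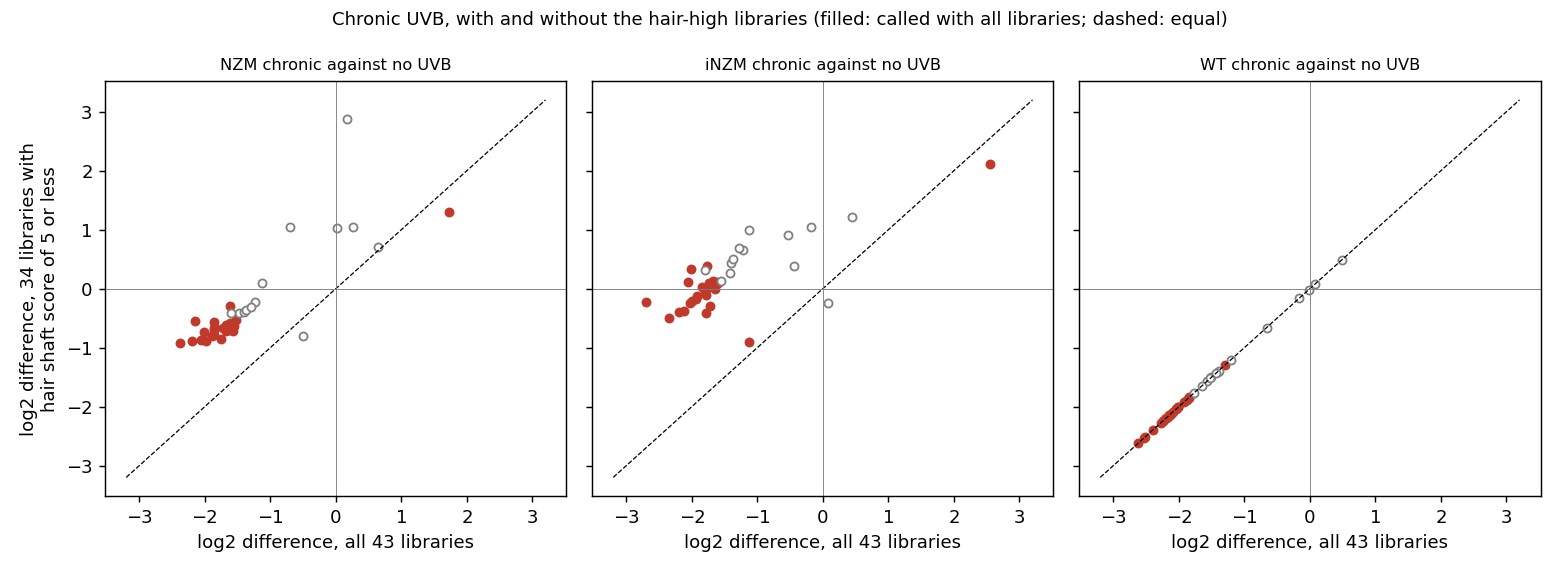
log2 difference of each of the 37 genes after chronic UVB in each strain, from all 43 libraries (horizontal axis) and from the 34 libraries with a hair shaft score of 5 or less (vertical axis); filled points were called with all libraries and the dashed line marks equal values. In NZM and iNZM most points, but not that of Tnni1, lie above the line, around a median of -0.61 and 0.10 on the vertical axis, and in WT they lie on it.

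Markers of other cell types moved in the same comparisons, and their part in the muscle differences was not tested. In chronic NZM, 11 of the 18 hair shaft genes were higher, their sum running from 853 to 416000 normalised counts per library against 1420 to 1780 without UVB, where 7 of the 18 had a median of 0. In chronic iNZM, 14 of 18 were higher (842 to 966000 against 797 to 1140, with 5 at a median of 0 in the controls). In chronic WT, 0 were called in limma and the sums were 1000 to 3150 against 833 to 10500, with 8 at a median of 0 after chronic UVB. Adipocyte genes, the layer that lies on the skin muscle, were lower for 9 of 15 in iNZM (36300 to 232000 against 246000 to 273000) and 9 of 15 in WT (102000 to 163000 against 287000 to 563000, with 1 gene higher), and for 0 of 15 in NZM (58800 to 229000 against 124000 to 358000, with 14 of 15 log2 differences above 0 although the sums were lower). Fibroblast genes were lower for 6 of 8 in iNZM and 5 of 8 in WT and higher for 3 of 8 in NZM. Their sums were 5290 to 59200 against 53100 to 106000, 30300 to 156000 against 61200 to 279000, and 57800 to 108000 against 15100 to 52200. With the hair-high libraries left out, limma called 0 hair shaft genes in NZM, 1 higher in iNZM and 0 in WT. Adipocyte calls were then 1 higher in NZM, 4 lower and 2 higher in iNZM, and 10 lower and 1 higher in WT. Fibroblast calls were 0 in NZM, 7 lower in iNZM and 5 lower in WT. No adipocyte or fibroblast marker had a median of 0 in these groups.

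The response to chronic UVB was compared between strains directly. NZM minus WT gave 0 members called, 0 at an unadjusted p below 0.05 in limma, and 0 by edgeR and DESeq2, while 7.58% of all genes were called. The median over the 37 was 0.33, and 0.0021 to 0.72 when 1 library was left out. When the hair-high libraries were left out the median was 1.36, all 37 differences were above 0, and 13 members differed, all with the smaller fall in NZM, where 5.50% of all genes were called in that direction. These were Actn3, Ckm, Mylpf, Myl1, Atp2a1, Casq1, Pvalb, Myoz1, Mybpc2, Pygm, Pgam2, Eno3 and Cacna1s, among which Actn3 differed by log2 2.20 (SE 0.50, adjusted p = 0.00974) and Ckm by 1.78 (SE 0.44, adjusted p = 0.015). With all libraries and the hair shaft score as a covariate, 14 differed in that direction, and the share of all genes is not given for that fit. For iNZM minus NZM, 0 members were called, 0 at an unadjusted p below 0.05, and 0 by edgeR and DESeq2, with 0% of all genes called.

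After acute UVB few of the 37 genes passed the test. The median log2 difference was -0.59 in NZM, -1.13 in iNZM and -0.14 in WT, against 0.02, 0.00 and 0 over all genes. It was -0.48, -0.31 and -0.14 without the hair-high libraries, and leaving out 1 library moved it from -1.43 to -0.66 in iNZM and from -0.36 to 0.12 in WT. limma called 0 of 37 in NZM (21.4% of all genes were called) and 0 in WT (21.7% of all genes), with 0 at an unadjusted p below 0.05 and 0 by edgeR and DESeq2 in both. In iNZM 1 gene was lower, Casq1, where 12.4% of all genes were called lower and 17 members had an unadjusted p below 0.05. Casq1 had 1050, 8280, 1900, 4840 and 7160 normalised counts in acute iNZM against 11800, 9850, 10900 and 10600 without UVB. All 5 lay below all 4, as was so for 2 members (Casq1 and Mb) and 10.4% of all genes. The log2 difference was -1.60 (SE 0.58, adjusted p = 0.0394), and -0.71 (adjusted p = 0.0727) without the 2 hair-high libraries of the group, iNZM acute 6 and 49. The call was also lost without either of those 2 or any 1 of the 4 controls (adjusted p 0.0607 to 0.161), and 14 members were called without iNZM acute 48 or 10. For these fits the share of all genes called is not given. In that group, hair shaft genes summed to 788 to 287000 with 1 of 18 called higher, and 8 of 15 adipocyte genes were lower (36700 to 267000 against 246000 to 273000). Their part was not tested. In NZM, Tcap was called lower without the hair-high library of the group, NZM acute 5 (log2 -0.88, adjusted p = 0.0281, with 14.1% of all genes lower). Myh2 was the 1 member of NZM with all acute libraries below all controls (9.91% of all genes). Response differences between strains gave 0 members for NZM minus WT (0.115% of all genes) and 0 for iNZM minus NZM (0.00522%), with 0 at an unadjusted p below 0.05 and 0 by edgeR and DESeq2.

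In limma with all libraries, Tnni1, slow-fibre troponin I (ENSMUSG00000026418.16, chromosome 1, 135779434 to 135810989, plus strand), was the only member called higher. Without UVB it had 50.2, 24.1, 19.7, 8.55 and 52.4 normalised counts in NZM, 13.1, 9.72, 19.0 and 24.0 in iNZM and 16.2, 7.91, 5.49 and 11.9 in WT. After chronic UVB it had 96.5, 89.5, 43.4, 120 and 111 in NZM, 47.5, 51.1, 104, 221 and 145 in iNZM and 18.0, 19.1, 12, 22.8 and 5.35 in WT. Every chronic iNZM library exceeded every iNZM control (8.23% of all genes), and every chronic NZM library exceeded every chronic WT library (3.38% of all genes). After acute UVB it had 16.0, 15.2, 7.86, 35.6 and 141 in NZM, 159, 21.6, 115, 45.1 and 16.8 in iNZM and 17.5, 9.54, 31.1, 16.3 and 11.3 in WT. The 3 acute values above 100 belonged to the 3 hair-high acute libraries, NZM 5 and iNZM 6 and 49. Over all 43 libraries Tnni1 was 51.1 to 221 in the 9 hair-high libraries, and the other 34 reached 104.

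The rise of Tnni1 after chronic UVB was log2 1.72 (SE 0.60, adjusted p = 0.041) in NZM, where 9.20% of all genes were called higher, and 2.55 (SE 0.64, adjusted p = 0.00414) in iNZM, where 13.1% were. Chronic NZM exceeded chronic WT by 2.56 (SE 0.60, adjusted p = 0.00436), as the only member in that comparison (4.29% of all genes were higher). Without the hair-high libraries the rise was 2.11 (adjusted p = 0.0218, with 9.94% of all genes higher) in iNZM and 1.3 (adjusted p = 0.241) in NZM, and the excess over WT was 2.14 (adjusted p = 0.0386). In NZM the call was also lost without 7 of the 10 compared libraries, each left out in turn, with an adjusted p of 0.0587 to 0.125: chronic 54, 17, 55 and 56 and controls 32, 33 and 34. With the hair shaft score as a covariate it was lost in both strains (0.398 in NZM and 0.0827 in iNZM) and against WT (0.0609). Whether these reads came from muscle was not tested. Tnni1 is a low gene here, with a median of 6.01 normalised counts per kilobase of exon against 34500 for its fast paralog Tnni2.

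**Figure D4:**
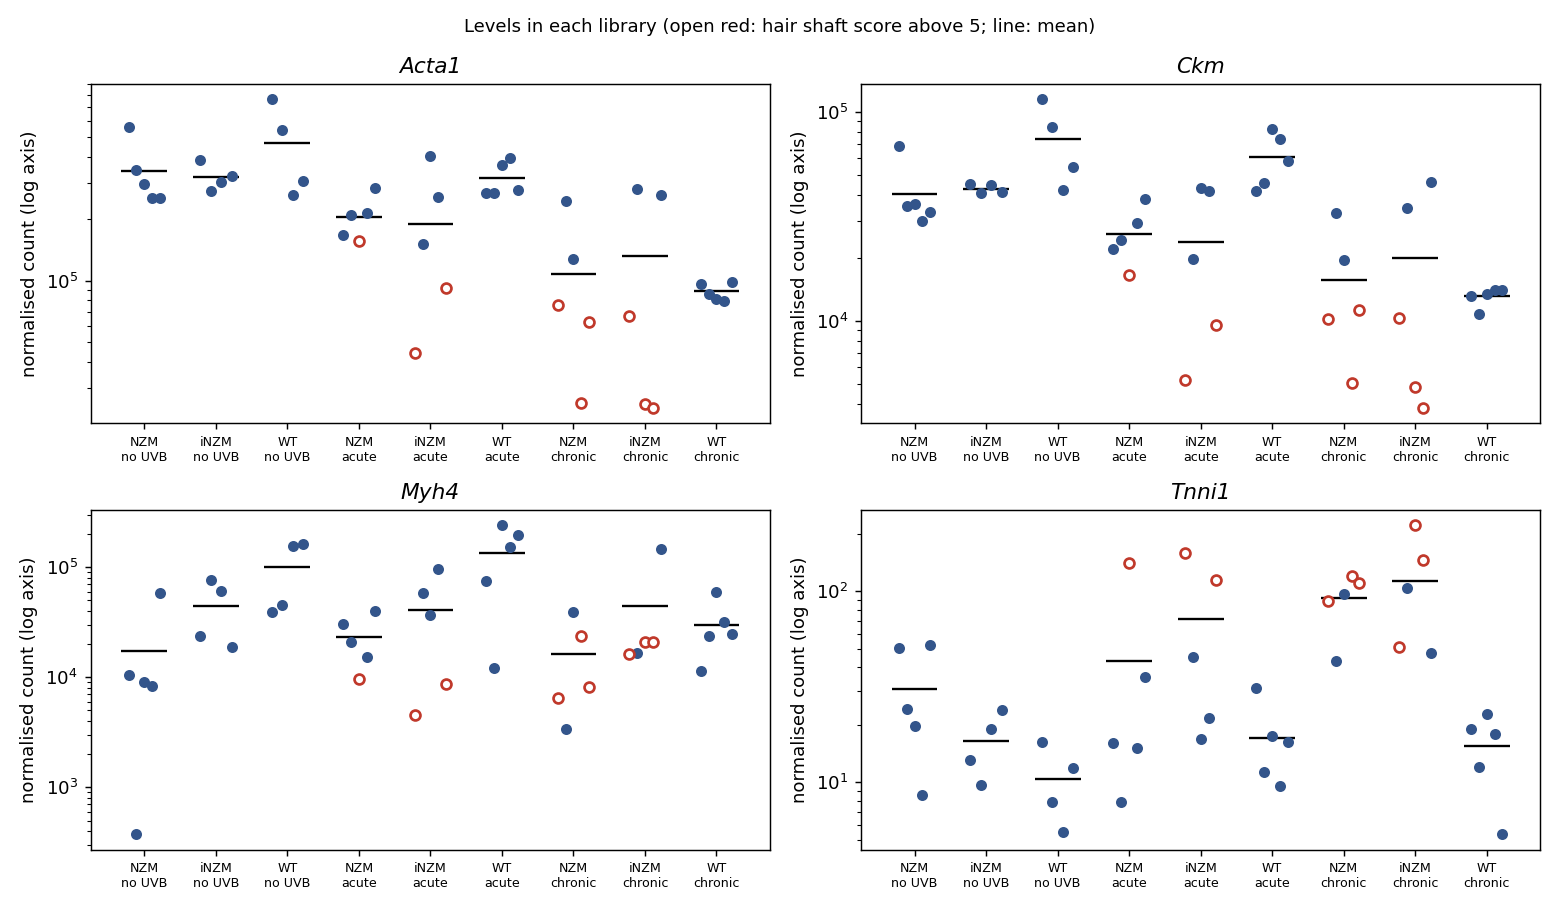
Normalised counts (vertical axis, log scale) of Acta1, Ckm, Myh4 and Tnni1 in each library by strain and UVB schedule, with the group mean as a line and the 9 libraries of high hair shaft score as open red circles. The lowest Acta1 and Ckm values are open circles, the chronic WT libraries lie close together, Myh4 spreads from 375 to 239000, and the open circles of Tnni1 run from 51.1 to 221.

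Of the other slow-fibre genes, Myh7, Myl2 and Tnnc1 were near the limit of counting in most libraries. Tnnt1 and Casq2 were counted in every library, with medians of 146 and 219. Myh7, the slow myosin heavy chain, was at 0 in 25 of the 43 libraries and Myl2, the slow regulatory light chain, in 9. Of the 6 slow-fibre members (Myh7, Myl2, Tnnt1, Tnni1, Tnnc1 and Casq2), Tnni1 was called higher in chronic NZM and iNZM and Casq2 lower in chronic iNZM and WT, and no other was called in a chronic comparison. The median log2 difference of the 6 after chronic UVB was 0.09, -0.05 and -0.09 in NZM, iNZM and WT, against -1.68, -1.72 and -2.12 for the 14 fast-fibre members, of which 9, 9 and 11 were lower. Of all genes, 9.78%, 15.7% and 16.8% were lower. The 6 leave out Mybpc1, the slow myosin-binding protein C, whose log2 differences, given above, were negative in each strain and called in iNZM. Medians of the 6 also rest in part on Myh7, Myl2 and Tnnc1, which had few reads. In the fit without hair-high libraries the medians were 1.04, 0.98 and -0.09 for the slow members and -0.58, -0.0081 and -2.12 for the fast members, of which 0, 0 and 13 were lower. Of all genes, 2.67%, 10.7% and 21.2% were lower in that fit. Tnnt1 held 82.5 to 308 in chronic NZM against 77.0 to 211 without UVB, 52.3 to 426 against 75.9 to 151 in iNZM and 53.0 to 340 against 65.3 to 389 in WT, with log2 differences of 0.26, -0.18 and -0.16. Its groups overlapped in every strain.

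A few libraries held high values of Myh7, Myl2 and Tnnc1 together, an observation made after the values were seen. NZM chronic 54 had the highest Myh7 (80.4), Myl2 (147) and Tnnc1 (66.2, slow and cardiac troponin C) of all 43. Controls NZM 31 and NZM 35 followed with 39.7 and 38.8 for Myh7, 44.3 and 45.6 for Myl2 and 26.8 and 31.0 for Tnnc1, and iNZM acute 9 had 18.7, 53.8 and 16.5. Casq2 did not go with them, since NZM chronic 54 ranked 38 of 43 for it. No WT library exceeded 3.97 for Myh7. Myl3, the slow and ventricular essential light chain and not one of the 37, was higher in NZM than in WT without UVB (73.4 against 3.46 on average, log2 3.57, adjusted p = 0.00477), after acute UVB (82.8 against 2.71, log2 4.78, adjusted p = 8.2e-05) and after chronic UVB (50.5 against 0.436, log2 4.72, adjusted p = 0.000134).

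Myh4, the 2B myosin heavy chain (ENSMUSG00000057003.12, chromosome 11, 67238029 to 67260446, plus strand), varied most among the abundant members. Without UVB it had 10500, 375, 9090, 8350 and 58700 normalised counts in NZM, 23600, 75800, 60900 and 18800 in iNZM and 39500, 45400, 157000 and 163000 in WT. After acute UVB it had 30400, 15200, 20800, 39800 and 9640 in NZM, 4550, 96300, 8680, 58000 and 36700 in iNZM and 239000, 152000, 74300, 194000 and 12100 in WT. After chronic UVB it had 39100, 6540, 3410, 23500 and 8120 in NZM, 146000, 16200, 16600, 21100 and 20800 in iNZM and 31500, 11400, 23800, 59100 and 24600 in WT. It differed widely within every group, and 1 NZM control (58700) exceeded 2 of the 4 WT controls (39500 and 45400). Without UVB, Myh4 was lower in NZM than in WT by log2 -3.54 (SE 0.99, adjusted p = 0.012). That was the 1 member called in this comparison, where 7.49% of all genes were called lower. The call was lost without NZM 32 (-2.48, adjusted p = 0.0653), whose value was the lowest of all 43, and without WT 45 (-3.21, adjusted p = 0.0583). It was also lost in limma with only the compared groups (adjusted p = 0.0639) and in edgeR (-2.54, adjusted p = 0.0589). DESeq2 kept it (-2.54, adjusted p = 0.0242).

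Per length of exon, Myh1, Myh2, Myh4 and Myh7 can be set side by side as shares of their sum, in which the total amount of muscle cancels. Myh1 and Myh4 together made up most of it in each library. Over the 43 libraries Myh1 held 13.6% to 85.5%, Myh4 0.179% to 80.9%, Myh2 3.03% to 18.6% and Myh7 at most 0.0523%. Without UVB, Myh4 held 8.69% ± 12.5 (SD, n = 5) in NZM, 22.3% ± 13.5 (n = 4) in iNZM and 37.1% ± 32.5 (n = 4) in WT. After acute UVB it held 17.3% ± 8.31, 28.3% ± 17.8 and 43.3% ± 22.6 (n = 5 each). After chronic UVB it ran from 2.08% to 70.7% in NZM, from 9.68% to 80.9% in iNZM and from 18.3% to 62.6% in WT. The Myh4 ranges of all 9 groups overlapped each other. Among the chronic NZM and iNZM libraries, Myh4 held 17.2% to 80.9% in the 6 hair-high libraries and 2.08% to 57.9% in the 4 others. Myh2 held 9.38% to 18.6% in every NZM library without UVB or after acute UVB, against 3.03% to 7.54% in the WT libraries of the same schedules, without overlap. In iNZM it held 7.40% to 12.7% without UVB and 5.96% to 13.1% after acute UVB, overlapping both other strains. The NZM and WT ranges met after chronic UVB, at 7.02% to 12.6% and 6.78% to 9.78%. These 3 fast myosin genes are near-identical neighbours on chromosome 11, and how shared reads were counted is not given in the sources used here, so their shares are uncertain to that extent.

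**Figure D5:**
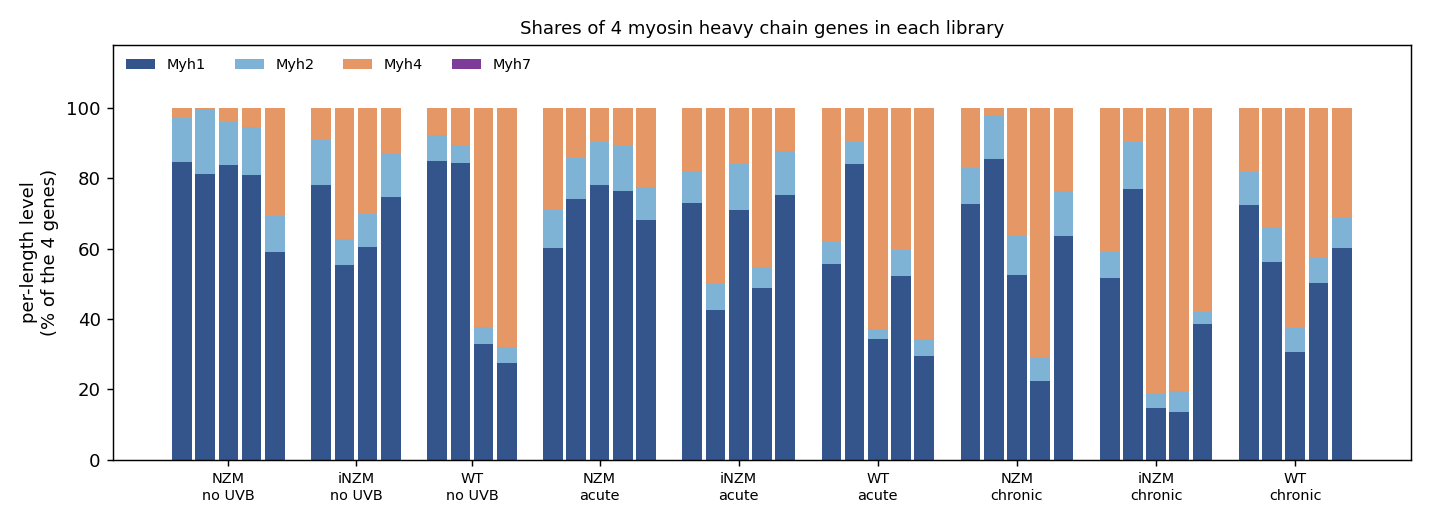
Per-length level of Myh1, Myh2, Myh4 and Myh7 as percent of their sum (vertical axis) in each of the 43 libraries, 1 bar per library by strain and UVB schedule. Myh4 runs from 0.179% to 80.9% and differs more within groups than between their means; Myh7, at most 0.0523%, is too small to see.

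Between iNZM and NZM, limma called 0 of 37 without UVB (0.0313% of all genes), after acute UVB (0.224%) and after chronic UVB (0.428%), with 1, 0 and 0 at an unadjusted p below 0.05 and 0 by edgeR and DESeq2 in each. Between NZM and WT after acute UVB, 0 were called (13.0% of all genes), 8 had an unadjusted p below 0.05, edgeR called 0 and DESeq2 2. There the median was -0.84, and 10 members (Ckm, Ckmt2, Mylpf, Myl1, Mb, Casq1, Pvalb, Pgam2, Tcap and Des) had all 5 NZM libraries below all 5 WT libraries, which 6.15% of all genes did. Ckm showed it with 16600 to 38200 against 41900 to 83100, Myl1 with 12400 to 30500 against 47000 to 70500 and Tcap with 8190 to 19100 against 26400 to 36200. With only these 2 groups in the fit, 14 members were called, a count without the share of all genes in that fit beside it. Without the hair-high libraries, of which NZM acute 5 belongs to this comparison, 13 members were lower in NZM (6.74% of all genes), among them Myl1 (-1.39, adjusted p = 0.000271) and Tcap (-1.33, adjusted p = 0.00235). The same libraries left out, 8 were lower in NZM without UVB (11.4% of all genes): Myh4, Ckm, Myl1, Casq1, Casq2, Mybpc2, Cacna1s and Tcap, although no library of these 2 groups had been removed and only the estimate of the spread had changed. After chronic UVB 4 were then higher in NZM than in WT (3.27% of all genes), namely Actn3, Atp2a1, Pvalb and Tnni1. In the controls, adipocyte genes were lower in NZM than in WT for 11 of 15 (124000 to 358000 against 287000 to 563000) and fibroblast genes for 7 of 8 (15100 to 52200 against 61200 to 279000), and their part was not tested.

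Other genes of the same tissue, 50 further skeletal muscle genes that were chosen for their function, were compared in the same way. Of the 49 tested, 27 were lower in chronic NZM, 37 in chronic iNZM and 41 in chronic WT, with medians of -1.57, -1.76 and -1.90. Of the same 49, 0, 0 and 46 were lower without the hair-high libraries. By adjusted p the first were Lmod3, which caps thin filaments, in NZM (log2 -2.19, adjusted p = 0.00579), Xirp1, a protein of muscle attachment sites, in iNZM (-2.97, adjusted p = 0.00351) and Myoz3, a Z disc protein, in WT (-2.76, adjusted p = 0.000384). Jph2, which ties the sarcoplasmic reticulum to the cell membrane, was lower in WT (-2.65) and iNZM (-2.11). The 1 gene higher in WT was Myh7b (56.0 against 25.0 normalised counts, log2 1.16, adjusted p = 0.0306), an ancient slow-type myosin with little protein in mouse muscle.

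Some regulators of muscle cells and of their nerve contact were also called lower. Among 14 tested myogenic and satellite cell genes, 6 were lower in chronic NZM, 9 in iNZM (and 1 higher) and 11 in WT. In WT, Pax7, the marker of muscle stem cells, went from 35.3 to 2.59 normalised counts (log2 -3.67, adjusted p = 0.000338), Myod1, the myogenic master factor, from 329 to 54.3 (-2.58, adjusted p = 0.00112), and Mef2d, a partner factor made in many tissues, from 3280 to 1590 (-1.05, adjusted p = 5.88e-05). Of 10 neuromuscular junction genes, 4, 6 and 4 were lower in NZM, iNZM and WT. The shares of all genes lower in chronic NZM, iNZM and WT were 9.78%, 15.7% and 16.8%. Musk, the receptor kinase that gathers acetylcholine receptors, was lower in WT (101 to 11.5, log2 -3.69, adjusted p = 0.000355). Without the hair-high libraries the lower myogenic genes numbered 0, 1 and 13 and the junction genes 0, 1 and 8. Lrp4, the agrin receptor of the junction with known roles in skin appendages too, behaved differently in acute UVB. It was lower in all 3 strains (log2 -2.21 in NZM, -2.08 in iNZM and -2.23 in WT, adjusted p 1.17e-08, 9.07e-08 and 1.17e-08), where the 37 muscle genes had 1 call.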

How the data were processed

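The deposited table held normalised counts, a depth-scaled signal, made by the authors with STAR, HTSeq and DESeq2 on mm10, per the submitters' processing notes. Versions, annotation, strand setting and filters are not given in the sources used here. Dividing each deposited value by its library's step gave whole reads, within 0.01, for all 43 libraries. Samples were grouped by title. The members and all gene lists were chosen with earlier results of these data known.

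limma 3.58.1 (trend) was fitted to log2(value + 1) with 9 group means over 43 libraries, for genes with at least 10 in at least 4 libraries; p-values were two-sided and adjusted by Benjamini-Hochberg over 19170 genes, called below 0.05. edgeR 4.0.16 (quasi-likelihood) and DESeq2 1.42.0 on recovered reads with the authors' size factors were alternatives, as were other pseudocounts, filters, scaling, covariates and leaving out libraries. The main limma, edgeR and DESeq2 fits were run on simulated reads, scored only for chronic WT against no UVB. The simulation gave every gene the same dispersion and drew genes independently. Other settings were not simulated. Shares and scores were given without tests. Exon lengths and positions came from GENCODE vM21 (GRCm38, the build of mm10). By the naming rule, all 37 members could be named, with the value in each library for the member of highest mean in each of 5 roles and for called members; to limit length, this was done for those 5 and for Casq1, Myh4 and Tnni1, in the groups of the comparisons described. Outside the 37, the rule allowed the 3 smallest adjusted p per list. Depth was 18.5 to 37.8 M reads. Read pairs carried no molecular identifiers.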

Additional observations from a re-analysis of the deposited data

Results flagged for a closer look

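For the 8 members with values in every library, for Myh7, Myl2, Tnnc1 and Tnnt1, and for the share of reads in the 37 genes, the highest and lowest library of each group were compared with the rest by Dixon's gap. Of 117 groups tested, 20 held a library that stood apart, where chance gives about 5%; libraries recur, so these are not independent. Control NZM 31 stood above its group in 4 of them, with a share of 9.10% of reads (next 5.33%), 68400 for Ckm, 148000 for Atp2a1 and 79600 for Des. Control iNZM 37 stood above its group for Myh1 (215000, next 130000) and Des (60600, next 41600). For Myh4, chronic iNZM 57 had 146000 (next 21100) and control NZM 35 had 58700 (next 10500). Tnni1 had 141 in acute NZM 5 (next 35.6).

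Among slow-fibre genes, chronic NZM 54 stood apart for Myh7 (80.4, next 0.771), Myl2 (147, next 13.4) and Tnnc1 (66.2, next 12.6), acute iNZM 9 for Myl2 (53.8, next 19.7), and chronic iNZM 23 for Myl2 (22.2, next 4.45) and Tnnt1 (426, next 156). Control iNZM 39 was low for Tnnt1 (75.9, next 138). The remaining Myh7 values, 1.02 in acute WT 52, 2.08 in chronic iNZM 24, 0.972 in control iNZM 38 and 3.97 in control WT 45, are a few reads against 0 in the other libraries of those groups.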

How the results depend on the processing

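Counts are of the 37 members called, and shares of all genes are not set beside them here. No paired analysis was possible because each library carries its own sample number. Leaving out 1 library gave 0 to 14 in acute iNZM, 1 to 30 in chronic NZM, 5 to 31 in chronic iNZM, 19 to 27 in chronic WT, 0 to 1 in NZM against WT without UVB and 0 to 2 after acute UVB. Without the hair-high libraries, chosen after seeing the data, the counts were 1 in acute NZM, 0 in acute iNZM, 0 in chronic NZM, 1 in chronic iNZM, 8, 13 and 4 for NZM against WT without, after acute and after chronic UVB, and 13 for the chronic response of NZM minus WT. There 9 members called lower in chronic iNZM changed sign: Actn2 (0.33), Ckmt2 (0.11), Tnnt3 (0.11), Ryr1 (0.13), Atp2a1 (0.027), Mybpc1 (0.38), Pygm (0.089), Eno3 (0.024) and Tcap (0.10), with fewer samples. With the hair score as covariate the counts were 0 in acute iNZM, 0 in chronic NZM, 1 in chronic iNZM, 4, 6 and 11 for NZM against WT without, after acute and after chronic UVB, and 14 for that response difference. With only the compared groups in the fit they were 4 in acute NZM, 0 in acute iNZM, 1 in chronic iNZM (Tnni1, higher), 2 for NZM against WT without UVB (Myh4 not among them) and 14 after acute UVB. edgeR gave 10 in chronic NZM, 2 in chronic iNZM and 0 for NZM against WT without UVB; DESeq2 gave 5 in chronic iNZM and 2 for NZM against WT after acute UVB. In acute iNZM edgeR and DESeq2 each called 1 member higher and none lower. A filter of 50 gave 2 in acute iNZM and 1 for NZM against WT after acute UVB, TMM scaling 3 and a term separating the sample numbers from 46 upward 5, both in acute iNZM. Other counts stayed within 1.5 times. The causes were not tested. Myh7 was at 0 in 25 libraries, so its values rest on few reads.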

Other observations

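Of 16 genes of muscle atrophy and stress, most of which skin cells also express, 3 were lower and 2 higher in chronic NZM, 3 lower and 2 higher in chronic iNZM, and 5 lower and 3 higher in chronic WT. Of all genes, 9.78% were lower and 9.20% higher in NZM, and 15.7% lower and 13.1% higher in iNZM. In WT 16.8% were lower, and the share higher is not given. These small counts are not read as a result about the list. Mstn, myostatin, the muscle-made brake on muscle growth, was lower in all 3 strains (log2 -1.86 in NZM, adjusted p = 0.0126, -1.80 in iNZM, adjusted p = 0.0152, and -2.57 in WT, adjusted p = 0.000448, all by limma). Fbxo32, the atrophy ubiquitin ligase atrogin-1, fell from 5220 to 2040 normalised counts in NZM (-1.43, adjusted p = 0.0105) and from 5700 to 1480 in WT (-1.71, adjusted p = 0.00155), with -0.90 (adjusted p = 0.0917) in iNZM. Gadd45a, a stress gene made in many cells, was higher in NZM (1.03, adjusted p = 0.000856), iNZM (1.06, adjusted p = 0.000927) and WT (0.92, adjusted p = 0.00157). Without the hair-high libraries this list had 1 lower and 0 higher in NZM, 0 lower and 1 higher in iNZM, and 7 lower and 4 higher in WT. Mstn then had -0.92 (adjusted p = 0.296) in NZM and -0.60 (adjusted p = 0.428) in iNZM, Fbxo32 -0.84 (adjusted p = 0.219) in NZM, and Gadd45a 0.66 (adjusted p = 0.135) in NZM and 0.90 (adjusted p = 0.0171) in iNZM.

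Acute UVB changed other members of this list while muscle genes had 1 call in all. The metallothioneins Mt1 and Mt2, which bind metals and are made by many skin cells, were higher in all 3 strains. Mt2 rose from 44.3 to 128 normalised counts in NZM (log2 1.58, adjusted p = 0.000661), from 29.6 to 178 in iNZM (2.57, adjusted p = 2.17e-06) and from 31.0 to 408 in WT (3.65, adjusted p = 2.03e-09), and Mt1 by 1.18, 1.84 and 3.17. Mt2 had 1.52, 2.76 and 3.65 without the hair-high libraries, each called. In that fit the muscle-made Mstn was called lower after acute UVB in all 3 strains. Its log2 difference was -1.11 in NZM, -1.55 in iNZM and -1.89 in WT (limma adjusted p = 0.0338, 0.012 and 0.00046).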
